A study of Mus musculus with 8 samples.

Results

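The 9 genes described here, S100a8, S100a9, Lcn2, Slpi, Retnlg, Stfa2l1, Wfdc17, Hdc and Acod1, were taken by their symbols from the 30406 genes shared by 4 single-cell RNA matrices of the mouse sciatic nerve. They were read in 6551 CD45+/CD11b+ cells of 13 hashtag samples, a hashtag being an antibody tag that marks the sample a cell came from. The samples were PSNL at 1 week (F and M), crush at 1 week (F and M), sham at 1 week (F and M), PSNL at 15 weeks (F1, F2, M1 and M2) and crush at 15 weeks (F1, F2 and M1). All came from male or female C57BL/6JolaHsd mice, for which the study's methods give an age at purchase but none at surgery, the labels name no transgene, and all groups had isoflurane and the analgesic buprenorphine at surgery. In PSNL, a partial sciatic nerve ligation, part of the nerve was tied off as a model of injury that does not resolve. In crush, the nerve was pressed with forceps and could regenerate, and in sham the nerve was exposed only. The study's text excluded Ly6G+ neutrophils from the sort at the acute time point only, so the 1-week cells had passed a gate against a neutrophil surface protein that the 15-week cells had not. The labels do not say whether a hashtag stood for 1 mouse or for several, and the p-values therefore measure the spread between these samples.

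Most of these genes are known from neutrophils, short-lived granulocytes that enter tissue early after injury and carry ready-made antimicrobial proteins. S100a8 and S100a9 encode the subunits of calprotectin, which binds calcium, zinc and manganese and signals through Tlr4, while Lcn2 binds the iron carriers of bacteria. Slpi, Stfa2l1 and Wfdc17 belong to protease inhibitor families, Retnlg is a secreted protein of the resistin family, Hdc makes histamine and Acod1 makes itaconate. Csf3r is the receptor for the growth factor G-CSF and Cxcr2 a chemokine receptor, and both are used as marks of neutrophils.

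In the GENCODE annotation of GRCm38, S100a8 (chr3:90668978-90670035, plus strand) and S100a9 (chr3:90692632-90695721, minus strand) lie close together on chromosome 3. Lcn2, Slpi and Hdc are on chromosome 2, Retnlg and Stfa2l1 on chromosome 16, Wfdc17 on chromosome 11 and Acod1 on chromosome 14. The S100a8 and S100a9 genes are shown by their promoters, because these were the most abundant of the 9 genes in cells with Cxcr2. Each window runs from 250 bases before to 50 bases after the start of the gene in RefSeq (GRCm38.p6), and is printed 5′ to 3′ on the strand of the gene. The S100a8 window is chr3:90668821-90669120 on the plus strand, and the S100a9 window is chr3:90695672-90695971 on the minus strand. Capitals mark a match to GAGGAAG, the core bound by PU.1, read on the other strand as CTTCCTC in S100a8, and a match to GGGANTTTC, a site of the NF-kB type, in S100a9.
S100a8: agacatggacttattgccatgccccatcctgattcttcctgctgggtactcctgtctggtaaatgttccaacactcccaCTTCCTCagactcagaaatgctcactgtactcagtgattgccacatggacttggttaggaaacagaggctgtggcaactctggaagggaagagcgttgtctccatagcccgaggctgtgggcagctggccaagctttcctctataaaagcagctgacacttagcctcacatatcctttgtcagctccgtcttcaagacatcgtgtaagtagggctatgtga
S100a9: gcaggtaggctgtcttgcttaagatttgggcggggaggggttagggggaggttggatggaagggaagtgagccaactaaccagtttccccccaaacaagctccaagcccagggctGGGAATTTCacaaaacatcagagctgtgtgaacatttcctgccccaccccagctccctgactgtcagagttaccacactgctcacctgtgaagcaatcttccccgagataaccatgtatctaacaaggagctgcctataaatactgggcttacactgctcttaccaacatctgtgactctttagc
Searched on both strands, with no overlap between the motifs in these windows, GAGGAAG was in 3 of the 9 windows (S100a8, Lcn2 and Wfdc17) and in 13.6% of 32851 RefSeq windows of the same length. GGGANTTTC was in 1 of 9 and in 1.11% of all windows, and TTNCGNAA, the C/EBP type, was in 0 of 9 and in 2.47%. A match is a description of the letters in the window.

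The 13 samples held 64 to 1555 cells and 247765 to 15291578 UMIs (unique molecular identifiers, each standing for a captured RNA molecule), with medians of 3085.5 to 9344 UMIs per cell. The sham samples were the smallest, with 64 cells in F and 106 in M. At 1 week, PSNL F, PSNL M and sham F shared a library, whereas crush F, crush M and sham M shared another, so that the library and the injury cannot be told apart between PSNL and crush, nor the library and the sex between the sham samples. The 15-week libraries were a separate batch by the labels, hence time and batch cannot be told apart. The long RNA Gm42418, which overlaps ribosomal RNA, took 1.33 to 2.36% of the UMIs at 15 weeks and 7.24 to 18.4% at 1 week. Levels below are CPM, the UMIs of a gene after the UMIs of all genes in the cells named were scaled to the usual fixed total, and comparisons are between samples. Within a sum over all cells, fewer cells of a type and less RNA per cell cannot be told apart.

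S100a8 and S100a9 were highest in PSNL at 1 week, were below 200 CPM in every 15-week sample, and varied widely within each 1-week group. S100a8 had 5475 and 2005 CPM in PSNL F and M and 321 and 528 CPM in crush F and M, against 161 and 1298 CPM in sham F and M. S100a9 had 7444 and 2463 CPM in PSNL, 408 and 722 CPM in crush and 230 and 1705 CPM in sham. For both genes the PSNL samples lay above all 4 other 1-week samples, and sham M lay above both crush samples. Lcn2 had 93.7 and 24.2 CPM in PSNL and 4.04 and 5.94 CPM in crush, against 4.04 and 13.2 CPM in sham.

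Among the protease inhibitors, Slpi, which blocks elastase and other neutrophil serine proteases, had 498 and 341 CPM in PSNL and 22.9 and 48.6 CPM in crush, against 60.5 and 117 CPM in sham. PSNL was the highest group and crush the lowest, with no overlap between any pair of groups. Stfa2l1, a stefin that inhibits cysteine proteases, had 243 and 59.3 CPM in PSNL and 3.59 and 22.6 CPM in crush, against 16.1 and 1.65 CPM in sham. Its counts are uncertain, since 62 of the 370 stretches of 50 bases in its transcripts (16.8%) also occur in Stfa2. Wfdc17, best known from activated macrophages, did not follow the others. It had 722 and 588 CPM in PSNL and 642 and 677 CPM in crush, against 694 and 795 CPM in sham, and PSNL overlapped with both other groups, while both sham samples lay above both crush samples.

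Retnlg was not highest in PSNL either. It had 344 and 89.9 CPM in PSNL and 207 and 583 CPM in crush, against 8.07 and 264 CPM in sham, and the groups overlapped. Of the enzymes, Hdc had 346 and 132 CPM in PSNL and 17.5 and 38.2 CPM in crush, against 20.2 and 70.8 CPM in sham. Acod1 had 255 and 167 CPM in PSNL and 13.5 and 31.4 CPM in crush, against 12.1 and 60.9 CPM in sham. Both enzymes were above every other 1-week sample in the PSNL samples, and crush overlapped with sham.

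**Figure D1:**
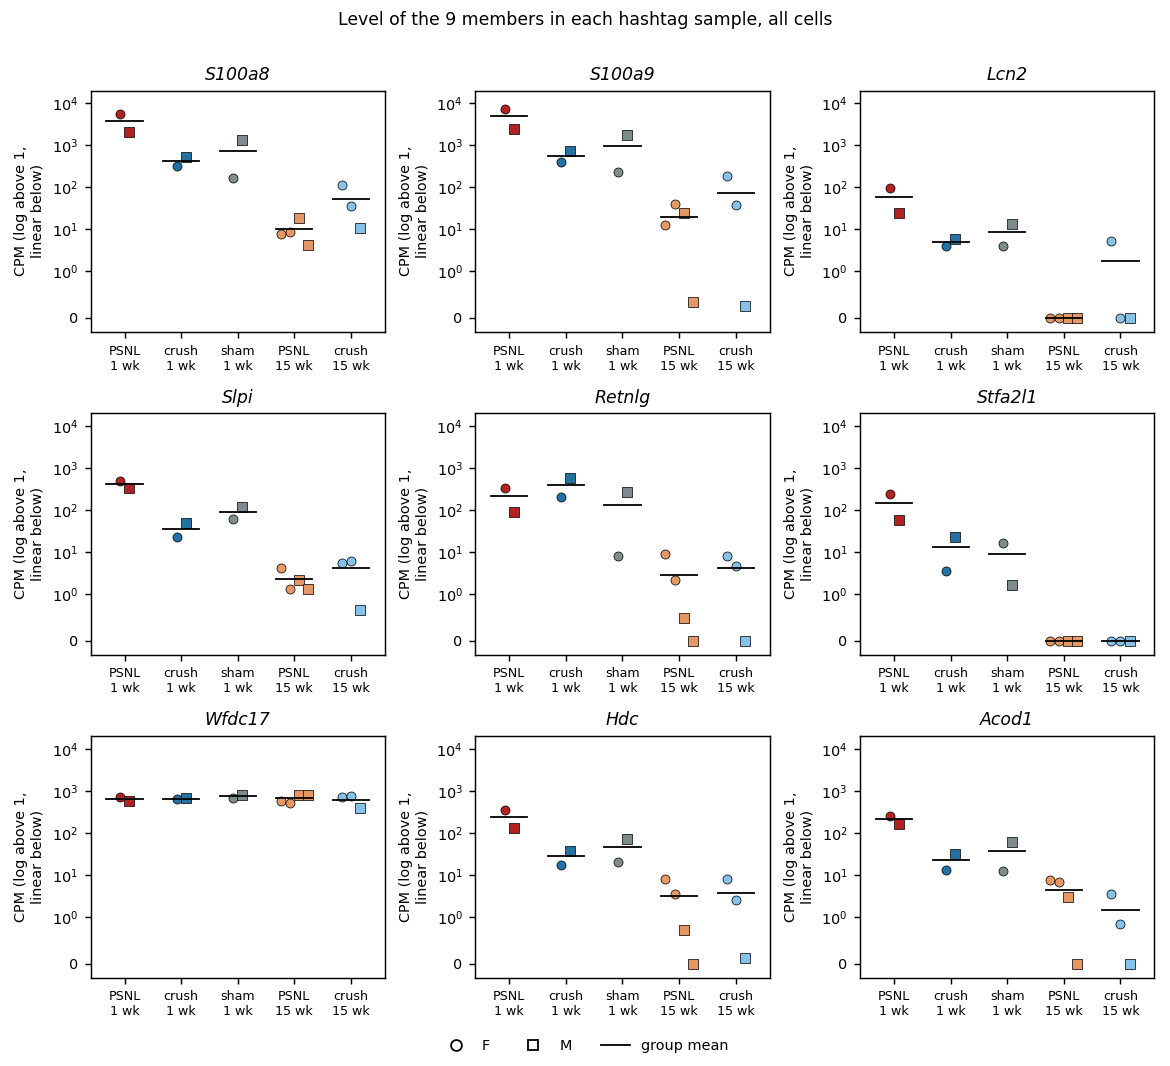
Level of each of the 9 genes in each hashtag sample (CPM over all cells; axis logarithmic above 1 and linear below), with circles for F samples, squares for M samples and a line at the group mean. Of the 1-week groups PSNL is highest for 7 genes, Retnlg is highest in crush M, Wfdc17 is level across the 5 groups, and Stfa2l1 is at 0 in all 7 samples at 15 weeks.

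PSNL differed from crush at 1 week in 4 of the 9 genes, all higher in PSNL. In edgeR's quasi-likelihood test across 11485 genes with Benjamini-Hochberg adjustment, Slpi was higher by 3.66 on the log2 scale (SE 0.58, adjusted p = 0.00235), Acod1 by 3.32 (SE 0.82, adjusted p = 0.0210), Stfa2l1 by 3.54 (SE 0.86, adjusted p = 0.0364) and Hdc by 3.19 (SE 0.94, adjusted p = 0.0440). Of all genes tested, 12.5% were called in this comparison, and the median change was 3.26 over the 9 genes and -0.02 over all genes. S100a8 (3.26, SE 1.01, adjusted p = 0.0520), Lcn2 (3.62, SE 1.14, adjusted p = 0.0691) and S100a9 (3.26, SE 1.64, adjusted p = 0.218) had changes of like size that did not pass. Retnlg (-0.75, SE 1.06, adjusted p = 0.703) and Wfdc17 (0.12, SE 0.28, adjusted p = 0.838) did not pass either. The call of Slpi held when any of the 4 samples was left out (adjusted p 0.0122 to 0.0219). Acod1, Hdc and Stfa2l1 lost theirs without crush F, crush M or PSNL F, Acod1 and Hdc also without PSNL M, and 0 of the 9 were called with a term for the library, where Slpi had an adjusted p of 0.111 and 69 of 11485 genes were called. The library term rests on sham F against sham M alone, which also differ in sex, so it cannot decide these calls. Hdc also lost its call without the cells of the highest doublet scores (adjusted p = 0.0531). DESeq2 called 2 of the 9, Slpi and S100a8.

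Related genes were counted in the same test. Of the genes for neutrophil surface and signalling proteins, 10 of 19 tested were higher in PSNL than in crush, among them the C-type lectin receptors Clec4d (log2 change 4.41) and Clec4e (4.85), the formyl peptide receptor Fpr2 (3.57) and Lrg1 (5.29). Of inflammatory genes induced together with Acod1, 8 of 11 were higher, including the chemokine Cxcl3 (6.35), Tnf (2.54), Nfkbiz (1.60) and Nlrp3 (2.32). Of the receptors that bind S100a8, S100a9 or Lcn2, 5 of 6 were higher, with Cd14 at 3.40, Tlr4 at 1.49, Ly96 at 1.5 and Bsg at 0.74. All 3 stefin cluster genes tested were higher (Gm5483 3.87, Asprv1 2.91, and Stfa1), as against 2 of 10 granule genes (Ncf4 1.10 and Mmp9 1.48), 1 of 6 other S100 genes (S100a11) and 0 of 3 other protease inhibitors of this kind. Kit, a receptor of mast cells and progenitors, was the 1 of 3 histamine and mast cell genes that passed, and was lower (-1.23).

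Against sham at 1 week, PSNL differed in 1 of the 9 genes (5.21% of all genes were called) and crush in none (0.165%). Slpi was higher in PSNL by 2.31 on the log2 scale (SE 0.60, edgeR adjusted p = 0.0442). The call of Slpi was lost when PSNL F, PSNL M, sham F or sham M was left out, with the library term, and without the cells of the highest doublet scores. S100a8 (2.48, SE 0.98, adjusted p = 0.167), Stfa2l1 (4.76, adjusted p = 0.0869), Acod1 (2.45, adjusted p = 0.145), Hdc (2.35, adjusted p = 0.214), S100a9 (2.49, adjusted p = 0.409), Lcn2 (2.65, adjusted p = 0.331), Retnlg (0.63, adjusted p = 0.822) and Wfdc17 (-0.03, adjusted p = 0.992) did not pass. At an unadjusted p under 0.05 there were 5 of the 9 genes for PSNL and 0 of 9 for crush, and DESeq2 called 1 and 0. Within the PSNL library both PSNL samples had more S100a8 than sham F, whereas in the crush library both crush samples had less than sham M. With a term for the library S100a8 was higher in PSNL than in sham by 4.67 on the log2 scale (SE 1.35, edgeR adjusted p = 0.105), which did not pass. Of the related genes, 5 of 11 induced together with Acod1 were higher in PSNL than in sham (Cxcl3 6.32, Tnf 1.93, Ccl3 2.18 and Nfkbiz 1.30), as were 2 of 19 surface genes (Clec4d 3.57 and Clec4e 3.53) and 2 of 6 receptors (Cd14 3.01 and Tlr4 1.04), and none of these lists had a called gene in crush against sham.

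The cells were then separated by their receptor UMIs. Cells with a Cxcr2 UMI carried the highest levels of S100a8 and S100a9 in all 3 groups at 1 week, and the PSNL and crush samples overlapped in that level. There were 132 and 93 such cells in PSNL F and M, 6 and 24 in crush and 2 and 13 in sham. In these cells S100a8 had 26422 and 14437 CPM in PSNL and 21201 and 22303 CPM in crush, against 4886 and 13491 CPM in sham. S100a9 had 36766 and 19372 CPM in PSNL and 26949 and 30797 CPM in crush, against 6734 and 18104 CPM in sham. The few cells of sham F had the lowest level of both genes. A UMI of S100a8 was found in 96.0% of these cells in PSNL and 90.0% in crush, against 93.3% in sham. Ly6g itself had 7 and 7 UMIs in all cells of the PSNL samples and 3 and 0 in crush, against 0 in either sham sample.

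Cells with a Cxcr2 UMI exceeded the cells without one in all 9 genes (edgeR with the sample as a block; 12.5% of 7811 genes were called higher). The test used the 3 samples at 1 week with 20 or more cells in both classes, PSNL F, PSNL M and crush M, and so holds no sham sample. This class was set after the data had been seen. The difference on the log2 scale was 5.69 for S100a8 (SE 0.70, adjusted p = 3.8e-05), 5.93 for S100a9, 5.50 for Lcn2, 4.45 for Slpi, 4.65 for Retnlg, 5.15 for Stfa2l1, 5.89 for Hdc and 5.15 for Acod1, whereas it was 1.25 for Wfdc17 (SE 0.22). Of the surface and signalling genes 17 of 19 were higher, of which Cxcr2 defines the class, and of the granule genes 7 of 9, with the peptidoglycan binding protein Pglyrp1 at 4.68 and the protease Mmp9 at 4.92. The other S100 genes did not move together, since S100a11 (1.80) and S100a6 (0.86) were higher, and S100a4 (-1.49) and S100a10 (-1.57) were among the 3 that were lower.

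In the remaining members the cells with Cxcr2 UMIs differed between groups in places. Slpi had 2141 and 1324 CPM in PSNL and 848 and 1854 CPM in crush, against 1981 and 878 CPM in sham, with full overlap. Retnlg had 1768 and 703 CPM in PSNL and 2686 and 7962 CPM in crush, against 264 and 2123 CPM in sham, so that both crush samples lay above both PSNL samples. Wfdc17 had 1237 and 879 CPM in PSNL and 2120 and 2101 CPM in crush, against 264 and 1388 CPM in sham, again with both crush samples above both PSNL samples. Acod1 had 1223 and 1198 CPM in PSNL and 612 and 1115 CPM in crush, against 132 and 612 CPM in sham, with the PSNL samples above the others. Lcn2 had 455 and 225 CPM in PSNL and 424 and 259 CPM in crush, against 0 and 102 CPM in sham. Hdc had 1768 and 1157 CPM in PSNL and 1272 and 1517 CPM in crush, against 528 and 714 CPM in sham. For both of these genes PSNL and crush overlapped and the sham samples lay below them. Stfa2l1 had 1058 and 403 CPM in PSNL and 377 and 1024 CPM in crush, against 528 and 20.4 CPM in sham, and the groups overlapped. These values rest on as few as 2 cells in a sample and were not tested.

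The share of such cells lay higher in PSNL F and M than in either crush sample. To compare shares at 1 depth, each cell was thinned to 1000 UMIs, which left out 1 to 34 shallower cells in each 1-week sample. The share of cells with a Cxcr2 UMI was then 18.4 and 6.63% in PSNL F and M and 0.932 and 3.68% in crush, against 1.59 and 10.7% in sham. Without thinning it was 24.8 and 10.6% in PSNL and 1.81 and 3.97% in crush, against 3.13 and 12.3% in sham. PSNL lay above crush without overlap, and sham spanned both. These shares cover kept barcodes only. In the 1-week PSNL library 227 kept barcodes had a Cxcr2 UMI before thinning. Left out were 264 such barcodes with more than 1 hashtag and 32 with fewer than 500 genes. In the 1-week crush library these counts were 43, 38 and 4. With 2 samples in a group, the exact two-sided permutation test cannot go below p = 0.333, which is what PSNL against crush gave.

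**Figure D2:**
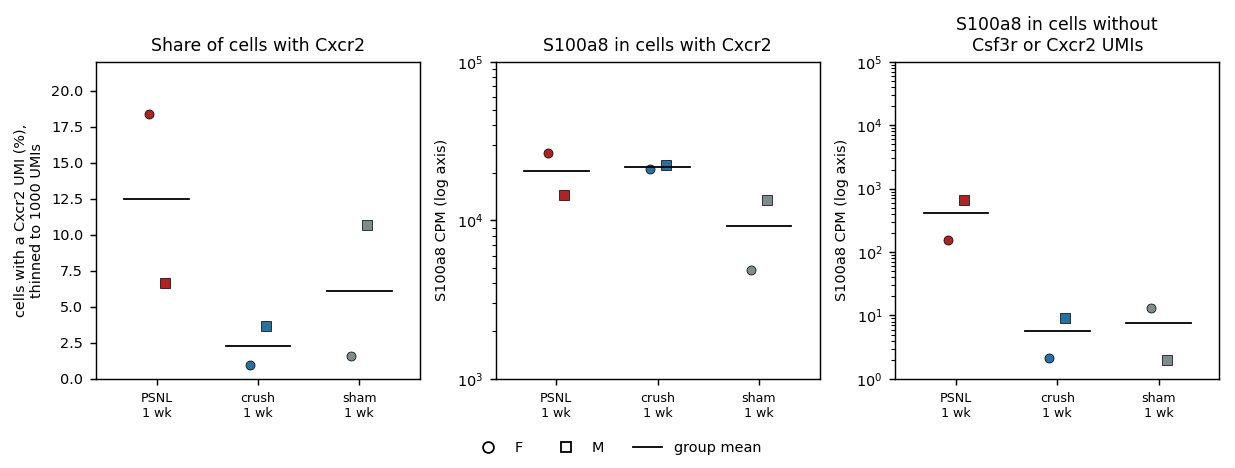
Thinned share of cells with a Cxcr2 UMI (left, %), S100a8 level in those cells (middle, CPM, log axis) and S100a8 level in cells with no Csf3r or Cxcr2 UMI (right, CPM, log axis) at 1 week, with circles for F, squares for M and a line at the group mean. The level in cells with Cxcr2 overlaps between PSNL and crush, while the share and the level in cells without receptor UMIs are higher in PSNL F and M than in crush F or M.

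Csf3r alone did not mark the same cells. At 15 weeks 33.2 to 50.9% of the cells of a sample had a Csf3r or Cxcr2 UMI before thinning and 6.76 to 11.8% after it, but 0.276 to 1.02% had Cxcr2, and in PSNL F1 95.9% of the receptor cells had 3 or more UMIs of the macrophage genes C1qa, C1qb and C1qc. Over the 12 samples with 20 cells in both classes, cells with either receptor exceeded those with none in the 4 of 4 members that could be tested, S100a8 (6.02 on the log2 scale), S100a9 (7.82), Retnlg (2.77) and Wfdc17 (0.38), with 8.75% of all genes called higher. The low-count filter, run on the sums of both classes, left out the other members. S100a9 had 1 UMI in receptor-free cells of PSNL at 15 weeks and 0 in those of crush, so which members were tested depended on the classes. Because Csf3r alone did not mark the same cells, cells with Cxcr2 are the class used for the levels above.

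Outside the cells with receptor UMIs, PSNL kept far more S100a8, S100a9 and Slpi than crush, and crush more Retnlg than PSNL. S100a8 had 154 and 674 CPM in PSNL and 2.10 and 9.16 CPM in crush, against 13.03 and 2.02 CPM in sham. S100a9 had 154 and 682 CPM in PSNL and 1.58 and 5.86 CPM in crush, against 26.1 and 2.02 CPM in sham. The PSNL samples lay above all others for both genes. Slpi had 114 and 227 CPM in PSNL and 5.79 and 6.23 CPM in crush, against 0 UMIs in either sham sample. With the samples of a group pooled and a floor of 3 UMIs over sham, PSNL was at least 46.9-fold higher. Single samples can lie below such a pooled fold.

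In this class 7 of 8 members tested differed between PSNL and crush (edgeR; 14.1% of 10681 genes were called). Higher in PSNL were S100a8 by 6.24 on the log2 scale (SE 0.81, adjusted p = 0.000452), S100a9 by 6.84 (SE 0.82), Slpi by 4.95 (SE 0.50, adjusted p = 0.000164), Acod1 by 3.58 (SE 0.84, adjusted p = 0.0144) and Hdc by 3.23 (SE 0.99, adjusted p = 0.0449). Stfa2l1 also passed, with 28.6 and 7.29 CPM in PSNL and 0 UMIs in crush, at least 20.8-fold with the samples pooled. In this class it had UMIs in no group but PSNL at 1 week, and it was tested only because of them. Cells with 10 or more S100a8 UMIs held 46 of its UMIs in PSNL F and 24 in PSNL M, and the other cells 2 and 6. Retnlg was lower in PSNL by a log2 change of -3.24 (SE 0.75, adjusted p = 0.0192). Wfdc17 had 575 and 533 CPM in PSNL and 633 and 681 CPM in crush, against 712 and 744 CPM in sham. The calls of S100a8, S100a9 and Slpi were kept whichever of the PSNL and crush samples was left out. Hdc lost its call without any 1 of the 4 and without the cells of the highest doublet scores (adjusted p = 0.0550), Retnlg without crush M, PSNL F or PSNL M, Stfa2l1 without crush F, crush M or PSNL F, and Acod1 without crush F, crush M or PSNL M, which left 3 or 4 calls. With the library term no member was called, but that term rests on the 1 sham sample in each library. In these cells sham held 0 Slpi UMIs, and the SE of Slpi under the term was 13338.5. The term therefore cannot decide these calls. DESeq2 called 3.

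Against sham, PSNL differed in 3 of 8 members in these cells (6.54% of all genes were called) and crush in 0 of 8 (0.440%). S100a8 was higher in PSNL by 6.35 on the log2 scale (SE 1.10, edgeR adjusted p = 0.00454), S100a9 by 5.53 (SE 0.96, adjusted p = 0.0069), and Slpi passed as well. Without sham M, or with the library term, 1 of the 3 calls was left, that of Slpi. Another rule for the hashtags (HTODemux) put S100a8 at -0.68 and S100a9 at -0.17, so that the direction of both against sham depends on how barcodes are given to samples. HTODemux was not the main rule because earlier results under it showed RNA of the male in female samples of a library. For crush, Retnlg was the 1 member with an unadjusted p under 0.05 (adjusted p = 0.0705), and DESeq2 called 0.

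The S100a8 in cells without receptor UMIs was held unevenly. In PSNL F, 6 of 321 cells had 10 or more S100a8 UMIs and carried 156 of 258 S100a8 UMIs (60.5%), and in PSNL M, 32 of 697 cells carried 2439 of 2773 (88.0%). These cells were small, with median depths of 1714.5 and 1653.5 UMIs, and 0 and 6.25% of them had 3 or more C1q UMIs. Their S100a8 level was 7176 and 23774 CPM and their Slpi level 1334 and 1667 CPM. The other cells, with median depths of 4750 and 5328 UMIs, had 61.5 and 83.3 CPM of S100a8 and 97.7 and 190 CPM of Slpi. The cells were divided here by S100a8 itself.

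Free RNA, released by broken cells and captured with others, can place UMIs of a gene in cells that do not express it. It was examined in cells with 3 or more C1q UMIs and no receptor UMI, the genes of complement C1q being markers of macrophages, and the test in this class was added after the data had been seen. In these S100a8 had 58.5 and 147 CPM in PSNL and 2.42 and 9.69 CPM in crush, against 20.4 and 3.61 CPM in sham. In PSNL M, 2 of the 221 C1q cells had 10 or more S100a8 UMIs and held 93 of the 214 (43.5%). No C1q cell of PSNL F had as many. Slpi had 48.0 and 135 CPM in PSNL and 8.48 and 1.76 CPM in crush, against 0 UMIs in sham, where 3 UMIs would be 20.4 and 10.8 CPM. Sham F had shared its library with the PSNL samples, and its 45 C1q cells held 3 S100a8 UMIs and 0 Slpi UMIs. Thinned to 1000 UMIs and with the classes set again after thinning, 86.3 and 81.4% of receptor cells in PSNL had an S100a8 UMI. For C1q cells the rule after thinning was looser, any C1q UMI and no receptor UMI left, which gave 123 and 263 cells in PSNL. In these an S100a8 UMI was found in 11.4 and 14.4% in PSNL and 0% in both crush samples, against 0 and 1.92% in sham. Before thinning, 19.6 and 29.1% of all receptor-free cells in PSNL had one, at median depths of 4704 and 5164 UMIs.

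In C1q cells 4 of 6 members tested differed between PSNL and crush (6.36% of 9751 genes were called), S100a8 by 4.11 on the log2 scale (SE 0.72, edgeR adjusted p = 0.00454), Slpi by 4.41 (SE 0.67, adjusted p = 0.00439) and Retnlg by -2.04 (SE 0.46, adjusted p = 0.0365), and S100a9, which had 29 and 125 UMIs in PSNL and 0 and 1 UMIs in crush. Slpi had 7 and 2 UMIs in crush and 0 in sham, and S100a9 had 4 and 1 in sham. At 15 weeks C1q cells held 0 and 2 UMIs of Slpi in the PSNL and crush libraries, and 1 and 0 of S100a9. Both genes were thus tested only through PSNL at 1 week, where they were high. Few C1q cells held Retnlg, 0.617% of 324 in PSNL and 6.57% of 274 in crush. Between PSNL and sham 2 of 6 differed (7.11%), S100a8 by 3.62 (SE 0.97, adjusted p = 0.0386) and Slpi. The HTODemux rule gave S100a8 a log2 change of 3.66 against sham in this class (adjusted p = 0.0477). None of the PSNL against crush calls was left without PSNL M and 2 without crush M, and none of the PSNL against sham calls without PSNL M, sham F or sham M. The 8 neutrophil marker genes include Csf3r and Cxcr2, which are absent from this class by its rule. Together the 8 markers stood at 496 to 647 CPM in C1q cells of PSNL and 37.0 to 84.8 CPM in crush, against 25.3 to 123 CPM in sham, with 3 to 5 of them detected in PSNL. The part of these markers in the result was not tested. Without the cells of the highest doublet scores, Retnlg lost its call against crush (-1.74, adjusted p = 0.0657), while S100a8, S100a9 and Slpi kept theirs against crush, and S100a8 and Slpi theirs against sham.

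The ratio of Slpi to S100a8 UMIs was lower in cells with Cxcr2 than in receptor-free or C1q cells of the PSNL samples, with no overlap of the counting intervals. Per 100 S100a8 UMIs, cells with Cxcr2 held 8.10 Slpi UMIs in PSNL F (95% exact interval 7.56 to 8.68) and 9.17 in PSNL M (8.39 to 10.0). Cells without receptor UMIs held 74.0 (61.1 to 89.6) and 33.6 (31.2 to 36.2), and the C1q cells among them 82.1 (49.8 to 134) and 92.1 (75.5 to 112). S100a9 moved the other way, with 139 (136 to 143) and 134 (130 to 139) per 100 S100a8 UMIs in cells with Cxcr2, 100 (84.2 to 120) and 101 (95.9 to 107) in cells without receptor UMIs, and 74.4 (44.3 to 123) and 58.4 (46.5 to 73.2) in C1q cells. The intervals cover counting error only. Of the 270 PSNL cells with 3 or more Slpi UMIs, 98 had no receptor UMI and held 33.6% of all Slpi UMIs, with a median depth of 5329 UMIs, C1q in 25.5% and 10 or more S100a8 UMIs in 19.4%. In crush 94.7% of the 19 such cells had a receptor UMI, and in sham all 10 had.

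**Figure D3:**
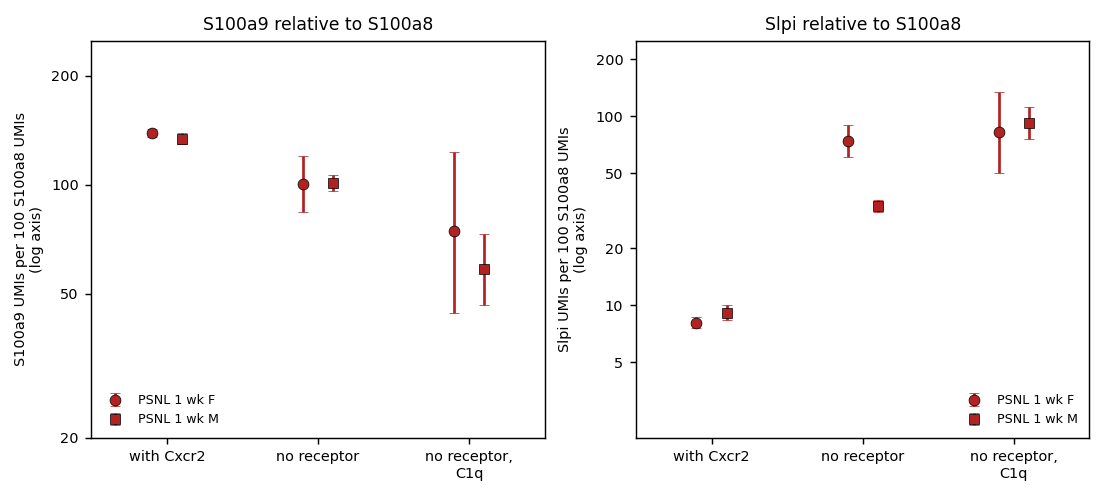
S100a9 (left) and Slpi (right) UMIs per 100 S100a8 UMIs in the PSNL samples at 1 week (log axes), in cells with Cxcr2 UMIs, cells without receptor UMIs and the C1q cells among them, with 95% exact intervals for counting error. Slpi is 8.10 and 9.17 per 100 in cells with Cxcr2 and 82.1 and 92.1 in the C1q cells, while S100a9 falls to 74.4 and 58.4 there.

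Of the other members, Hdc, Stfa2l1 and Acod1 were held mainly by receptor cells in PSNL. Of cells with 3 or more UMIs of a gene, 92.6% of 203 for Hdc, 91.2% of 68 for Stfa2l1 and 85.3% of 184 for Acod1 had a receptor UMI. For Wfdc17 this was 32.4% of 500 cells in PSNL and 19.1% of 418 in crush, against 25.0% of 52 in sham. Of all cells, 39.7 and 20.3% had a receptor UMI in PSNL F and M and 13.9 and 20.8% in crush, against 9.38 and 23.6% in sham. Most cells with 3 or more Wfdc17 UMIs thus had no receptor UMI, although the test above called Wfdc17 higher in cells with a Cxcr2 UMI. In C1q cells Wfdc17 had 442 and 390 CPM in PSNL and 560 and 457 CPM in crush, against 456 and 646 CPM in sham.

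Retnlg differed from the rest in crush, where most of it sat in cells without a neutrophil receptor UMI. These cells carried 392 of 461 Retnlg UMIs in crush F and 1363 of 2063 in crush M, as compared with 57 of 855 and 142 of 453 in PSNL F and M and 0 of 2 and 0 of 160 in sham. Their Retnlg level was 206 and 499 CPM in crush and 33.9 and 34.5 CPM in PSNL, against 0 UMIs in sham, where 3 UMIs would be 13.03 CPM in F and 6.06 CPM in M. With the samples of each group pooled and a floor of 3 UMIs over sham, crush was at least 91.6-fold higher and PSNL at least 8.30-fold. Sham M, which had no Retnlg UMI in its 81 cells without a receptor, had been in the same library as both crush samples.

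Cells of the crush samples with Retnlg and no receptor UMI carried eosinophil transcripts. Of 22 such cells in F and 58 in M, 72.7 and 60.3% had a UMI of Ccr3, the eotaxin receptor, and 72.7 and 72.4% of Alox15, a lipoxygenase abundant in eosinophils. Siglecf was found in 18.2 and 19.0%, Prg2 in 22.7 and 15.5%, Il5ra in 9.09 and 10.3%, and the peroxidase Epx in 0 of 22 and 0 of 58. Any of these was present in 81.8 and 81.0% of the cells with Retnlg, against 4.92 and 3.56% of the 264 and 421 receptor-free cells without it, although the cells with Retnlg were shallower (medians of 1046 and 994 UMIs, against 5738 and 5402). Cells with a Siglecf or Ccr3 UMI held 82.9 and 79.8% of the Retnlg UMIs outside receptor cells. Pooled over the crush samples, 53 of 79 receptor-free cells with Siglecf or Ccr3 had Retnlg (67.1%), against 27 of 686 others (3.94%). The 95% exact interval of the former, 55.6 to 77.3, covers counting error over cells and not the spread between samples. The 6 eosinophil markers together had 58.4 to 94.5 CPM in receptor-free cells of crush and 4.38 to 16.1 CPM in PSNL, against 0 to 4.04 CPM in sham.

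**Figure D4:**
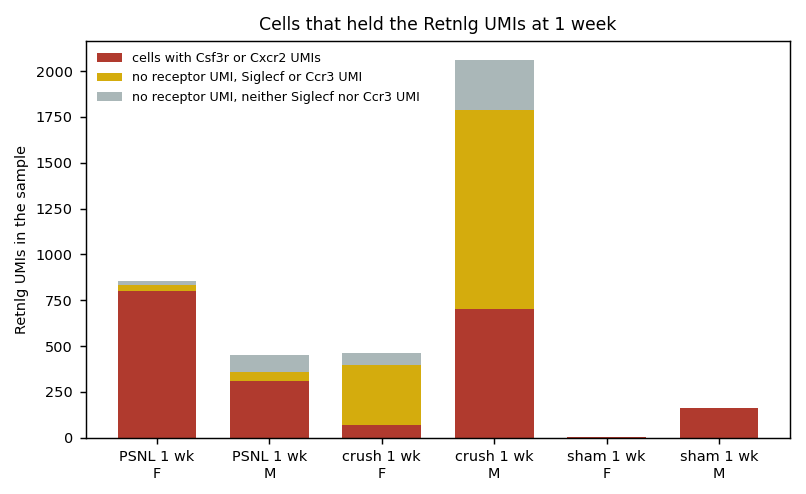
Retnlg UMIs of each 1-week sample (bar height, UMIs), divided into those in cells with Csf3r or Cxcr2 UMIs, in receptor-free cells with a Siglecf or Ccr3 UMI and in other receptor-free cells. Receptor cells hold most Retnlg in both PSNL samples, and receptor-free cells with Siglecf or Ccr3 hold most of it in both crush samples.

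At 15 weeks 8 of the 9 genes were lower than at 1 week in PSNL, and 6 of 9 in crush. S100a8 had 7.64, 8.71, 19.0 and 4.31 CPM in PSNL F1, F2, M1 and M2 and 114, 36.0 and 10.99 CPM in crush F1, F2 and M1. S100a9 had 12.3, 39.2, 24.3 and 0.332 CPM in PSNL and 185, 38.2 and 0.262 CPM in crush. Crush F1 was the highest sample for both genes and crush M1 had the least S100a9. Slpi had 1.33 to 4.24 CPM in PSNL and 0.654 to 6.00 CPM in crush, and Stfa2l1 had 0 UMIs in all 7 samples. Wfdc17 stayed at 564, 519, 793 and 805 CPM in PSNL and 724, 745 and 388 CPM in crush.

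In PSNL at 15 weeks against 1 week, S100a8 was lower by a log2 change of -8.93 (SE 0.97, edgeR adjusted p = 9.9e-06), S100a9 of -8.42 (SE 1.54, adjusted p = 0.00053), Slpi of -8.00 (SE 0.58, adjusted p = 4.6e-07), Retnlg of -6.85 (SE 1.18, adjusted p = 0.00034), Hdc of -6.83 (SE 0.91) and Acod1 of -6.06 (SE 0.74). DESeq2 gave S100a9 no adjusted p. Lcn2 and Stfa2l1, both at 0 UMIs in PSNL at 15 weeks, were at least 207-fold and 526-fold lower with the samples pooled. Wfdc17 (-0.38, adjusted p = 0.192) did not pass, and 27.0% of all genes were called lower. In crush, S100a8 (-3.24, SE 0.87, adjusted p = 0.0104), Slpi (-3.82, SE 0.62, adjusted p = 0.000445), Retnlg (-7.23, SE 1.27, adjusted p = 0.000768), Hdc (-3.56, adjusted p = 0.0146), Acod1 (-4.75, adjusted p = 0.0028) and Stfa2l1 (at least 111-fold) were lower, with 18.5% of all genes called lower, whereas S100a9 (-3.18, adjusted p = 0.0880) and Lcn2 (-2.12, adjusted p = 0.236) did not pass. Without crush M of 1 week, 3 of these 6 calls were made, those of S100a8, Hdc and Stfa2l1 being lost. In cells without receptor UMIs, 7 of 8 members were lower at 15 weeks in PSNL (26.0% of all genes), among them Stfa2l1, which was tested only through PSNL at 1 week. In crush 3 of 8 were lower (17.9%), namely S100a9, Slpi and Retnlg, while S100a8 did not pass there (-0.16, adjusted p = 0.912).

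Other lists fell with them in PSNL, with 18 of 19 surface and signalling genes, 8 of 10 granule genes, 10 of 11 genes induced together with Acod1, 5 of 6 other S100 genes and all 3 stefin genes lower at 15 weeks, beside 27.0% of all genes. In crush 9 of 19 surface genes and 3 of 10 granule genes were lower, beside 18.5% of all genes. There 4 of 6 receptors of S100a8, S100a9 and Lcn2 were higher, beside 24.1% of all genes, Tlr4 by 1.55, Ly96 by 1.5, Cd36 by 1.58 and Cd14 by 0.66 on the log2 scale.

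The difference of PSNL from crush was itself different at the later time for S100a8 (log2 change of -5.70, SE 1.30, edgeR adjusted p = 0.0214) and Slpi (-4.19, SE 0.93, adjusted p = 0.0198), 2 of 9 members with 7.73% of all genes called, in a test added after the data had been seen. The call of S100a8 was lost without crush F, crush M or PSNL F of 1 week, and that of Slpi without crush F1 of 15 weeks, PSNL F or PSNL M of 1 week. Between PSNL and crush at 15 weeks alone, 0 of 9 members were called by edgeR, as were 0% of all genes, and 0 of 8 in cells without receptor UMIs, also 0% of all genes. At an unadjusted p under 0.05 there was 1 member in either, S100a8, with a log2 change of -2.43 (edgeR adjusted p = 0.970) in all cells and -2.26 (adjusted p = 0.831) in receptor-free cells, and DESeq2 called 0 members in either.

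In 5 of the 7 samples at 15 weeks most S100a8 was in very few cells with Cxcr2, and in PSNL M2 and crush M1 all of it was in cells without. There were 2, 3, 2 and 1 such cells in PSNL and 5, 1 and 5 in crush, and they held 16, 31, 66 and 0 S100a8 UMIs in PSNL and 468, 78 and 0 in crush. The cells without Cxcr2 of PSNL M2 held 13 S100a8 UMIs and 1 S100a9 UMI, the S100a8 being in 10 cells that were all C1q cells. Those of crush M1 held 168 S100a8 UMIs but 4 S100a9 UMIs, with S100a8 spread over 116 cells of which 114 were C1q cells. Across samples, C1q cells without Cxcr2 had S100a8 at 0.949, 0.357, 3.49 and 4.80 CPM in PSNL and 2.98, 2.82 and 11.3 CPM in crush. The 3 male samples lay above the 4 female samples, a grouping seen in the values and given with no test, and S100a9 was between 0 and 0.470 CPM in these cells.

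**Figure D5:**
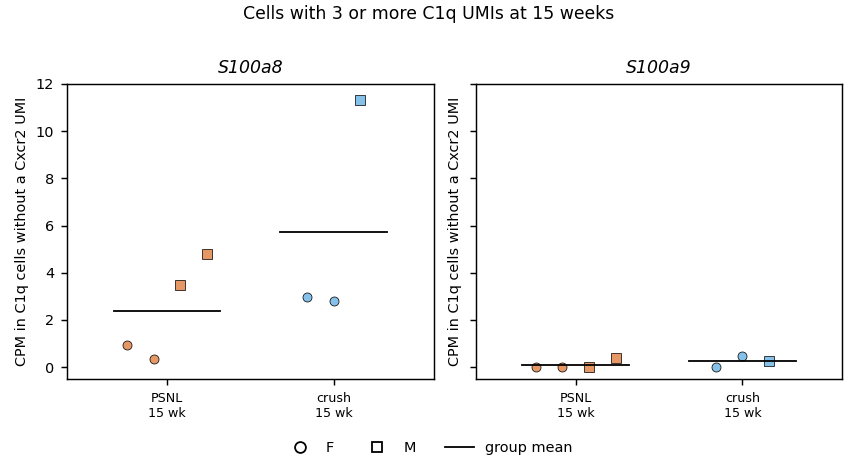
S100a8 (left) and S100a9 (right) in cells with 3 or more C1q UMIs and no Cxcr2 UMI at 15 weeks (CPM), for 4 PSNL and 3 crush samples, with circles for F, squares for M and a line at the group mean. S100a8 is highest in crush M1, at 11.3 CPM, while S100a9 is at or below 0.470 CPM in every sample.

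Across the 13 samples, 8 of the 9 genes varied together on a log scale, and Wfdc17 less so. Pearson's r between Wfdc17 and the others was 0.12 to 0.34, and among the other 8 it was 0.72 to 0.97, over samples that share libraries and depth. The gene most like S100a8, Lcn2, Slpi and Hdc in this measure was Trem1, a receptor of neutrophils and monocytes (r = 0.97, 0.97, 0.99 and 0.96), and Stfa2l1 was most like its neighbour in the stefin cluster Gm5483 (0.97). S100a9 was most like Magohb (0.98), Retnlg like Taf1d (0.96) and Wfdc17 like Ccdc174 (0.79).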

How the data were processed

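Single-cell RNA of live CD45+/CD11b+ sciatic nerve cells was read from 4 libraries. The files deposited by the authors give whole UMI counts of each gene for each barcode called as a cell, not normalised, together with hashtag counts. Per the submitters' processing notes the build was GRCm38, with Seurat 5.1.0 and Cell Ranger 6.0.0, whereas the matrix headers carry 6.0.0 (1 week) and 7.0.0 (15 weeks). Files of 31053 and 32285 genes were joined on 30406 genes, which kept at least 99.4% of the UMIs. There were 0 columns of samples not used.

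Of 9133 barcodes, those with 500 or more genes, less than 10% mitochondrial UMIs and exactly 1 hashtag above the valley of its density (bandwidth 0.15) were kept, leaving 6551. Barcodes with several hashtags (713, 515, 106 and 48) were treated as doublets and removed. Scrublet called 1 to 4 per library and so had not worked, and an alternative removed the top 6% of its scores. In each library 3 to 7 barcodes also occurred in another. Counts were summed per hashtag sample and cell class, and tested with edgeR 4.0.16 (quasi-likelihood, filterByExpr, TMM, 13 samples in 5 groups, 8 residual degrees of freedom, R 4.3.3), with Benjamini-Hochberg adjustment over all genes and a call at an adjusted p under 0.05. Alternatives were DESeq2 1.42.0, HTODemux (Seurat 5.3.0), a ratio of 3 between hashtags, 200 genes, no filter, a library term, a replicate block and leaving out each sample. Simulated counts were used to test the scripts.

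Depth was 247765 to 15291578 UMIs per sample. A receptor cell had at least 1 UMI of Csf3r or Cxcr2, and sums of cells in the class comparisons needed 20 cells. Intervals are exact (Clopper-Pearson) 95% intervals and, like the floor of 3 UMIs, cover counting error only. Folds given as at least pool the UMIs of a group over its samples. The rule for named genes was to name all 9 members and up to 4 genes of each related list per comparison, by smallest adjusted p. Genes of small lists beyond it, and S100a6, Stfa1 and Asprv1, were named for their counts. The members and lists were chosen with earlier results of these data known. The class with Cxcr2 alone, the C1q class and the change between time points were added after the data had been seen.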

Additional observations from a re-analysis of the deposited data

Results flagged for a closer look

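In PSNL at 15 weeks, sample F1 stood apart from the other 3 samples in cells without receptor UMIs for Retnlg (12.9 CPM), Hdc (5.62 CPM) and Acod1 (3.21 CPM). There were 15 groups of values looked at in this way. For Retnlg and Acod1 the other 3 samples held no UMI in these cells, so the value of F1 was marked whatever its size. The usual chance rate of such a mark does not hold for counts this sparse. Each value came from 1 of the 166 receptor-free cells of that sample, with 16, 7 and 4 UMIs.

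The difference of PSNL from crush changed between the time points for S100a8 (-5.70 on the log2 scale, 15 weeks minus 1 week) and Slpi (-4.19), as tested by an interaction term in edgeR.

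Barcodes outside the comparisons also carried these genes. In the 1-week PSNL library, 206 barcodes with fewer than 500 genes had 19837 CPM of S100a8, and 32 of them had a Cxcr2 UMI. In the same library 713 barcodes with more than 1 hashtag, 28.9% of the library, had 3554 CPM of S100a8, and 37.0% of them had Cxcr2, as compared with 15.4% of the barcodes kept. In the 1-week crush library, 212 barcodes with fewer than 500 genes had 10182 CPM of Retnlg, and 515 barcodes with more than 1 hashtag had 870 CPM.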

How the results depend on the processing

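Of 1106 values of 91 results under alternatives, 208 of those for counts of members and shares stayed close to the reported value, 50 moved and 3 changed sign, and of those for single genes and Cxcr2 shares 736 kept direction and call, 94 lost the call, 6 gained it and 9 changed sign. Members called, PSNL against sham, were 0 with the library term, 0 without the top Scrublet scores, 4 with no filter and 0 to 0 without each sample. PSNL against crush at 1 week gave 2 with DESeq2, 0 with the library term and 1 to 2 without each sample, and crush at 15 weeks against 1 week 3 to 8 without each sample. In cells without receptor UMIs, PSNL against sham gave 5 with fewer than 2 receptor UMIs as the limit, 1 with HTODemux, 1 with the library term, 7 with no filter and 1 to 3 without each sample. Crush against sham gave 1 with at least 200 genes, 1 with no filter and 0 to 1 without each sample. PSNL against crush gave 3 with DESeq2, 0 with the library term and 3 to 4 without each sample at 1 week, and 2 at 15 weeks with no filter. Crush at 15 weeks against 1 week gave 6 with fewer than 2 receptor UMIs, 5 with no filter and 2 to 4 without each sample. Receptor cells against the rest (4 of 4 tested) gave 7 of 9 with DESeq2, 9 of 9 with no filter, 7 of 9 at 1 week alone, 2 of 2 at 15 weeks alone and 2 to 5 without each sample, with other members tested. In C1q cells, leaving out each sample gave 0 to 4 against crush and 0 to 2 against sham, and the change between times gave 0 to 5. The library term rests on 1 sham sample in each library, so counts under it cannot decide a call. The cause of these shifts was not tested.

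The replicate block gave 3 for crush at 15 weeks against 1 week and 1 for crush against sham in receptor-free cells, and S100a9 in PSNL at 15 weeks against 1 week had a log2 change of -5.81 and an adjusted p of 0.0612. Deviations of same-labelled samples at 15 weeks correlated at 0.0830 to 0.166, and 1 of 3 labels correlated best with its own, so the samples were taken to share only a label.

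Shares, in percentage points: receptor cells in crush minus sham were -3.37, and 0.354 at 2000 UMIs and 0.861 without thinning. PSNL minus crush at 15 weeks was 2.09, and -0.115 without thinning, and for Cxcr2 cells 0.0968, and -0.0179 with the hashtag ratio and -0.0532 without thinning. Signs also changed on the log2 scale for Retnlg in PSNL against sham (-0.57 to 4.88 without each sample, with -0.57 without PSNL F and -0.12 without sham F) and against crush (4.24 with the library term, -1.98 to 0.17 without each sample, with 0.17 without crush M), for S100a8 (-0.68) and S100a9 (-0.17) in receptor-free cells with HTODemux, and for Acod1 against crush there with the library term (-3.87). The Acod1 value under the library term had an SE of 7.74. The sham values rest on 58 and 81 receptor-free cells.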
